A study of Mus musculus with 2 samples.

Results

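Heat shock proteins, their DNAJ and BAG partners and the chaperonins were examined in an erythroid cell line of the mouse, G1E-ER4. The members were the protein-coding genes of the GENCODE mouse annotation whose symbols mark them as HSP70 and HSP110, HSP90, small HSP, chaperonin, DNAJ or BAG genes, without Hspa9. The rule gave 87 genes, of which 86 had a row among the 21474 protein-coding genes of the deposited gene tables. Hspa14 was reached through its 6 transcripts alone, and Hspg2, which encodes the matrix protein perlecan, matches the rule by name only. Cct6a, which encodes a subunit of the cytosolic chaperonin, is typed as a processed transcript in the annotation used here. It is therefore no member and is given beside the other subunits only.

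Paired-end sequencing of poly(A) RNA gave 2 libraries, labelled biological replicates 1 and 2. Both come from Gata1-null cells in which GATA1 function was restored by a fusion of GATA1 to the hormone-responsive region of an estrogen receptor. Both received 17beta-estradiol at 10 nM, and RNA was taken after 30 h. The line is immortalized and labelled male and postnatal. No untreated library was analysed here, so the data allow comparisons among genes, among transcripts and between the replicates, but none with uninduced cells.

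HSP70 proteins hold unfolded proteins through cycles of ATP hydrolysis, which J-domain (DNAJ) proteins start and nucleotide exchange factors of the HSP110 and BAG families end. HSP90 proteins finish the folding of kinases and receptors, the estrogen receptor among them, and the chaperonins enclose a folding protein in a double ring. In human erythroblasts, HSP70 is known to protect GATA1 from cleavage by caspases.

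Replicate 1 held 73681318 expected counts over its gene rows, and replicate 2 held 56056404. All 10 erythroid marker genes had at least 10 TPM in both libraries, Gata1 among them at 2036 and 1608 TPM in replicates 1 and 2. Reads on Gata1 can come from the introduced fusion, which was not separated here, so its level is not that of an endogenous gene. TPM is a length-corrected transcript abundance whose total is equal across libraries. None of the 3 lymphoid markers had 1 TPM in both libraries.

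Transcripts of most chaperone genes were detected. Of the 86 members, 59 (68.6%) had at least 1 TPM in both libraries, against 35.3% of all protein-coding genes. At least 10 TPM was reached by 38 members (44.2%), against 20.4% of protein-coding genes, and at least 100 TPM by 8 members (9.30%), against 4.32%. Another 13 members had 0 counts in both libraries, a state shared by 39.6% of protein-coding genes. Such a zero leaves room for 3 counts at most, which is 0.0407 CPM in replicate 1 and 0.0535 CPM in replicate 2, counting error alone being considered. Over all 86 members the median of the mean levels was 9.15 TPM. In these bulk samples, fewer cells with a transcript and less of it per cell cannot be told apart.

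The members summed to 4137 and 4090 TPM in replicates 1 and 2, or 0.411% of all TPM. Levels are given below as mean ± SD over the 2 libraries (n = 2) where the libraries are not listed. The 6 BAG genes held 33.1 ± 3.99% of the members' TPM. The 13 DNAJB genes held 18.0 ± 0.988%, the 12 HSP70 and HSP110 genes 13.5 ± 1.5%, the 28 DNAJC genes 13.2 ± 1.34% and the 9 cytosolic chaperonin genes 11.5 ± 0.151%. The 4 DNAJA genes held 4.97 ± 1.10%, the 3 HSP90 genes 2.89 ± 0.926%, the mitochondrial chaperonin pair 2.28 ± 0.0103% and the 8 small HSP genes 0.489 ± 0.0269%. On coding transcripts alone the BAG genes held 43.7 ± 3.78% and the DNAJC genes 9.81 ± 0.758%. The cytosolic chaperonin genes then held 5.32 ± 0.396%, at 148 TPM in place of 471 TPM, and the DNAJA genes 2.35 ± 0.331%, at 65.4 TPM in place of 204 TPM. On both scales the BAG genes, which are co-chaperones, summed to more TPM than the HSP70 and HSP90 genes together.

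**Figure D1:**
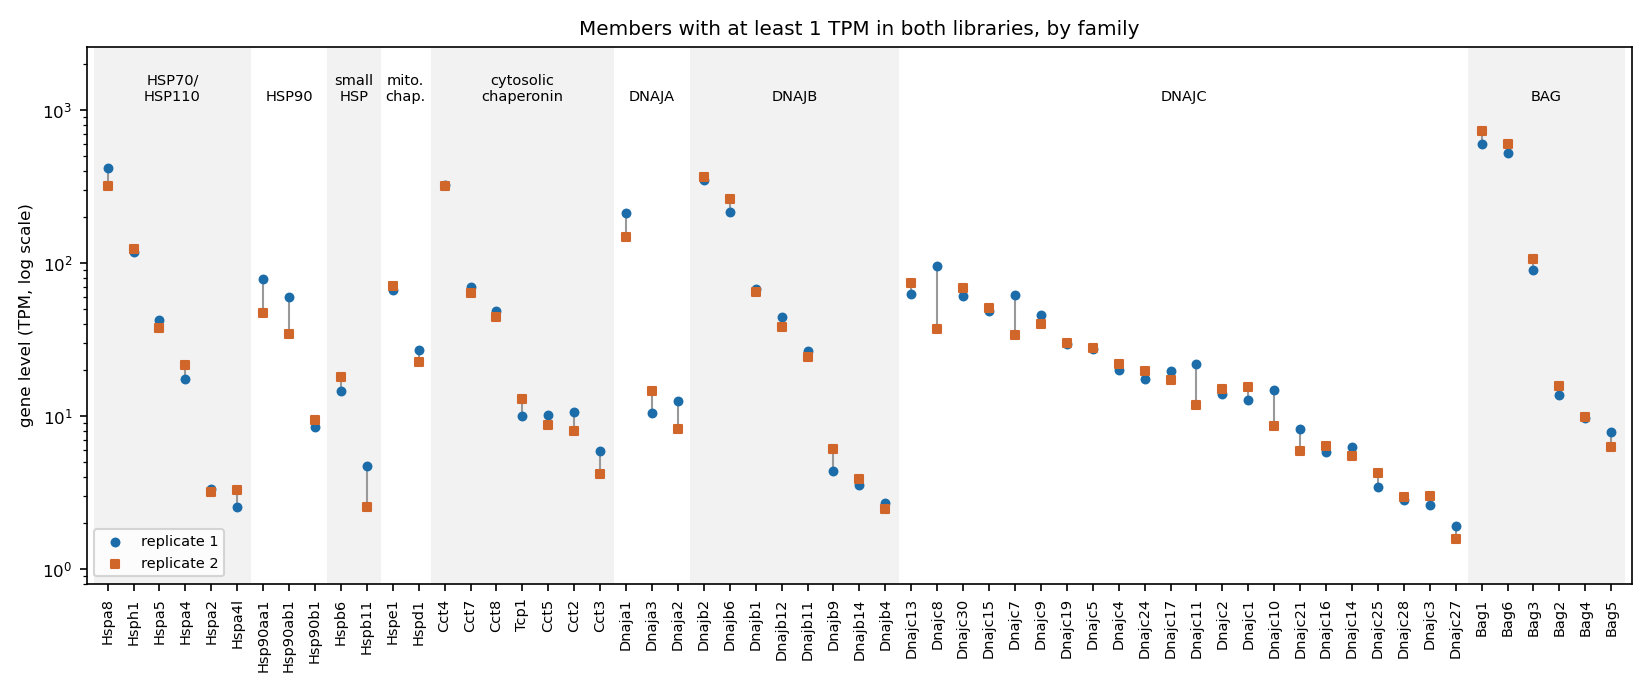
Gene level in TPM (log scale) of the 59 members with at least 1 TPM in both libraries, ordered within each family by mean level, with circles for replicate 1, squares for replicate 2 and a line joining them. Bag1, Bag6, Hspa8, Dnajb2 and Cct4 stand above 300 TPM in both libraries, and Dnajc8 has the widest gap between its libraries among the DNAJC genes, at 96.1 and 37.1 TPM in replicates 1 and 2.

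Members were set against a family gene chosen for its role, by the difference in log2(TPM + 1) within each library, tested with limma over the 7742 protein-coding genes with a mean of at least 1 TPM and with Benjamini-Hochberg adjustment over all of them. With 2 libraries this fit takes its spread almost wholly from the other genes of like level. Its very small p-values therefore rest on the spread pooled over genes, which are not independent, and the standard error (SE) is the more readable figure. Every ratio to a family gene also carries that gene's own change between the libraries, and so does the SE. The labels do not say how the cultures were separated, so the spread may be technical. Of 51 members tested, 5 were higher than their family gene, 41 were lower and 5 were not separated from it. Among all tested protein-coding genes, the share that was lower ran from 33.6% against Tcp1 to 97.2% against Bag1. The pooled count therefore depends on how high the chosen family genes are.

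Hspa8 (ENSMUSG00000015656.12, mm10 chromosome 9, 40800984 to 40810087, plus strand), the constitutive cytosolic HSP70, led its family. It had 418 and 319 TPM in replicates 1 and 2, from 58300 and 33541 expected counts. Hsph1, an HSP110 that releases nucleotide from HSP70, followed at 118 and 123 TPM. Hspa5, the HSP70 of the endoplasmic reticulum, had 42.2 and 37.6 TPM, and Hspa4, another HSP110, had 17.4 and 21.6 TPM. In TPM of all transcripts these genes kept this order in both libraries. On coding transcripts Hspa8 still led, at a mean of 366 TPM, while Hspa4 (15.7 TPM) and Hspa5 (15.5 TPM) were close together and Hsph1 was at 0.92 TPM. By counts per longest coding length Hspa4, at a mean of 17.7 CPM per kilobase, was also above Hspa5 (12.9) and Hsph1 (12.8).

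All 5 tested members of the HSP70 and HSP110 family were lower than Hspa8, as were 94.3% of all tested protein-coding genes, while 2.3% were higher than Hspa8. The count therefore says no more than that Hspa8 is among the highest genes. The difference in log2(TPM + 1) was -1.59 (SE 0.315, limma adjusted p = 5.2e-07) for Hsph1 and -3.16 (SE 0.300) for Hspa5. By counts per longest coding length it was -4.38 for both, and on coding transcripts it was -4.47 for Hspa5, while Hsph1 was under the filter for the test. It was -4.17 (SE 0.286) for Hspa4, -6.43 (SE 0.229) for Hspa2, best known from testis, and -6.56 (SE 0.225) for Hspa4l, the third HSP110.

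Several other HSP70 genes were under 1 TPM in both libraries. Hspa13 had 0.18 and 0.12 TPM in replicates 1 and 2, Hspa12a 0.09 TPM in both, Hspa12b 0.24 and 0.09 TPM, and Hspa1l, a testis gene, 2 counts in all. Hspa14, a ribosome-associated HSP70, had 3.0 and 2.31 TPM in replicates 1 and 2, summed over its transcripts.

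Hspa1a and Hspa1b, the classical heat-inducible HSP70 genes, were low in both libraries but differed between them more than any other member with at least 20 counts. Hspa1b had 1.00 TPM in replicate 2 against 0.10 TPM in replicate 1, from 151 and 20.5 expected counts. Hspa1a had 0.42 TPM in replicate 2 against 0.05 TPM in replicate 1, from 67.5 and 9.47 expected counts. The longest open reading frames of the 2 genes, 1926 bases for Hspa1a and 1929 for Hspa1b, are 99.5% identical and differ at 10 bases, so the split of reads between them is uncertain. Summed, they had 218 counts in replicate 2 and 30 in replicate 1, a ratio of 9.94 (exact binomial 95% interval 6.77 to 15.1) after scaling of the libraries by edgeR's trimmed mean of M-values (TMM). With 1 library on each side no test was possible, and the interval covers counting error only. Even in replicate 2 the pair summed to 1.42 TPM, against 319 TPM for Hspa8.

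The upstream regions of the pair, from RefSeq on GRCm38.p6, are shown because they differ so little. Each line gives the 150 bases before the start site on the minus strand, chr17:34972157-34972306 for Hspa1a and chr17:34959239-34959388 for Hspa1b. Capitals mark a heat shock element of 2 units, GAANNTTC, at positions -104 to -97, counted with the first transcribed base as 0.
Hspa1a: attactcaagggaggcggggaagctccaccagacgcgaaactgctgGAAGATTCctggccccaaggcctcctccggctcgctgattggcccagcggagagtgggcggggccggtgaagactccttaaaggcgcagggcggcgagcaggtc
Hspa1b: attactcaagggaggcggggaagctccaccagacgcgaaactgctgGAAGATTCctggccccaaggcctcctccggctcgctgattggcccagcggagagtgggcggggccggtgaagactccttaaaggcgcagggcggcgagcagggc
These 2 stretches differ at 1 base, and the full windows of 300 bases at 4 bases.

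Among the HSP90 genes, Hsp90aa1 (the stress-inducible cytosolic form) and Hsp90ab1 (the constitutive form) were both higher in replicate 1. Hsp90aa1 had 78.4 and 47.4 TPM in replicates 1 and 2, and Hsp90ab1 had 59.7 and 34.5 TPM. Hsp90b1, the form of the endoplasmic reticulum, had 8.47 and 9.46 TPM. Hsp90aa1 was not separated from Hsp90ab1 (difference 0.42 in log2(TPM + 1), SE 0.649, 95% interval -0.85 to 1.69). The difference itself was 0.39 in replicate 1 and 0.45 in replicate 2. The SE is pooled over the ratios of other genes to Hsp90ab1, which all carry the change of Hsp90ab1 between the libraries. Hsp90b1 was lower than Hsp90ab1 by this test, as were 55.2% of protein-coding genes, with a difference of -2.22 (SE 0.568, limma adjusted p = 0.00021). The place of Hsp90aa1 turns on transcripts not annotated as protein-coding. Restricted to coding transcripts, Hsp90aa1 had 10.7 and 6.92 TPM in replicates 1 and 2, and its difference from Hsp90ab1 turned to -2.25 (limma adjusted p = 0.00025).

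Small HSPs hold unfolded proteins without ATP. They were the lowest family. Hspb6, best known from muscle, had 14.5 and 18.1 TPM in replicates 1 and 2. Hspb11, which also serves in intraflagellar transport, had 4.73 and 2.53 TPM, and Hspb9, a testis gene, had 0.19 and 0.13 TPM. Hspb1, Hspb2, Hspb3, Hspb7 and Hspb8 had 0 counts in both libraries. Hspb1, the most widely expressed small HSP, was chosen as the gene to set this family against, and at 0 counts it allowed no test.

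The mitochondrial chaperonin is built from the ring protein Hspd1 and its lid Hspe1, whose genes lie head to head on chromosome 1. Hspe1 (plus strand, 55088132 to 55091307) had 66.9 and 71.1 TPM in replicates 1 and 2. Hspd1 (minus strand) had 27.2 and 22.6 TPM. Hspe1 was higher than Hspd1 by 1.44 in log2(TPM + 1) (SE 0.224, limma adjusted p = 2.3e-10), where 30.9% of protein-coding genes were higher than Hspd1 and 55.3% lower. The gene models overlap by 112 bases, and reads there cannot be told apart without strand.

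The region before the Hspe1 start holds an extended heat shock element, shown with the elements of Dnajb6 and Hsph1, the other members with 3 units. Capitals mark matches to 3 alternating units of GAA and TTC with any pair of bases (NN) between them, starting with either unit and searched on both strands. The Hspe1 line is chr1:55088053-55088082 on the plus strand, and in it a pair of overlapping matches together span 18 bases, at -89 to -72 from the Hspe1 start. The same bases read on the other strand lie at -144 to -127 from a start of Hspd1. The Dnajb6 line is chr5:29735844-29735873, plus strand, with the match at -46 to -34 from a start site and -127 to -115 from another. The Hsph1 line is chr5:149636279-149636308, minus strand, with the match 15 to 27 bases past a start site and 36 to 48 past another.
Hspe1: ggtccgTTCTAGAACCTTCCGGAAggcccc
Dnajb6: agctccgaGAATCTTCCGGAAcgctagacc
Hsph1: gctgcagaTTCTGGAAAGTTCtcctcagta
RefSeq gave windows of 250 bases before and 50 after the start for 72 members, 92 windows in all. The 3-unit element was in 6 of them (6.52%), in 4 genes, against 0.603% of the 32851 windows of all genes. The 6 windows hold fewer separate sites, because both Dnajb6 windows hold the same bases, as do both Hsph1 windows. The element of Hspd1 and Hspe1 is also shared. The shorter 2-unit element, GAANNTTC or TTCNNGAA, which any 3-unit match also holds, was in 22 windows of 20 genes (23.9%), against 15.1% of all windows. The 4 genes with the 3-unit element had mean levels between 24.9 TPM (Hspd1) and 240.0 TPM (Dnajb6). Genes with only the 2-unit element ran from 0 counts (Hspb3 and Hspb8 among them) to 182 TPM (Dnaja1). Bag1 and Bag6, the highest members, held neither, and a relation of level to the number of units was not tested. A match is a description of these letters and no evidence of binding.

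The cytosolic chaperonin is a ring of different subunits that each ring needs in equal number. The transcripts of its subunits were far from equal. Cct4 (ENSMUSG00000007739.6, chromosome 11, 22990519 to 23003780, plus strand) had 323 and 322 TPM in replicates 1 and 2. Cct7 had 69.6 and 63.5 TPM, Cct8 had 48.5 and 44.6 TPM, and Cct6a, given for comparison, had 30.8 and 30.5 TPM. The other subunits were lower, with 10.0 and 12.9 TPM for Tcp1, 10.1 and 8.76 TPM for Cct5, 10.6 and 8.04 TPM for Cct2, and 5.88 and 4.2 TPM for Cct3. The libraries gave the same upper 4 genes in the same order, while Tcp1, Cct5 and Cct2 changed places among themselves. Cct6b, a copy best known from testis, had 0.28 and 0.40 TPM in replicates 1 and 2, and Cct8l1 had 0 counts, as did Hspg2.

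Set against Tcp1, 3 of 6 subunits were higher, against 45.6% of all tested protein-coding genes, and 1 was lower, against 33.6%. The difference in log2(TPM + 1) was 4.71 (SE 0.253) for Cct4, 2.45 (SE 0.259) for Cct7 and 1.94 (SE 0.264) for Cct8, with limma adjusted p of 9.3e-13 or less. Cct3 was lower by this test, at -1.05 (SE 0.326, limma adjusted p = 0.0019). Cct5 and Cct2 were not separated from Tcp1, with 95% intervals of -0.84 to 0.34 and -0.87 to 0.32. After adjustment for GC content Cct5 was lower than Tcp1, at -1.03 (limma adjusted p = 0.0066).

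The height of Cct4 came from a pair of short transcripts annotated for nonsense-mediated decay. The transcript of 581 bases held 66.6% of the Cct4 TPM in replicate 1 and 65.1% in replicate 2, and the transcript of 465 bases held 31.4% and 32.5%. Its coding transcripts had 2.50 and 2.48 TPM, and on coding transcripts alone Cct4 was lower than Tcp1, at -1.82 (limma adjusted p = 4.5e-07). When the counts of the gene were divided by the length of its longest coding transcript, Cct4 had 54.3 and 52.7 CPM per kilobase, below Cct7 at 66.2 and 60.6. The spread across the member subunits remained on each scale. The highest of them exceeded the lowest 55.0-fold in replicate 1 and 76.6-fold in replicate 2 in TPM. The figures were 27.8-fold and 29.5-fold on coding transcripts and 20.2-fold and 24.3-fold in counts per longest coding length.

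**Figure D2:**
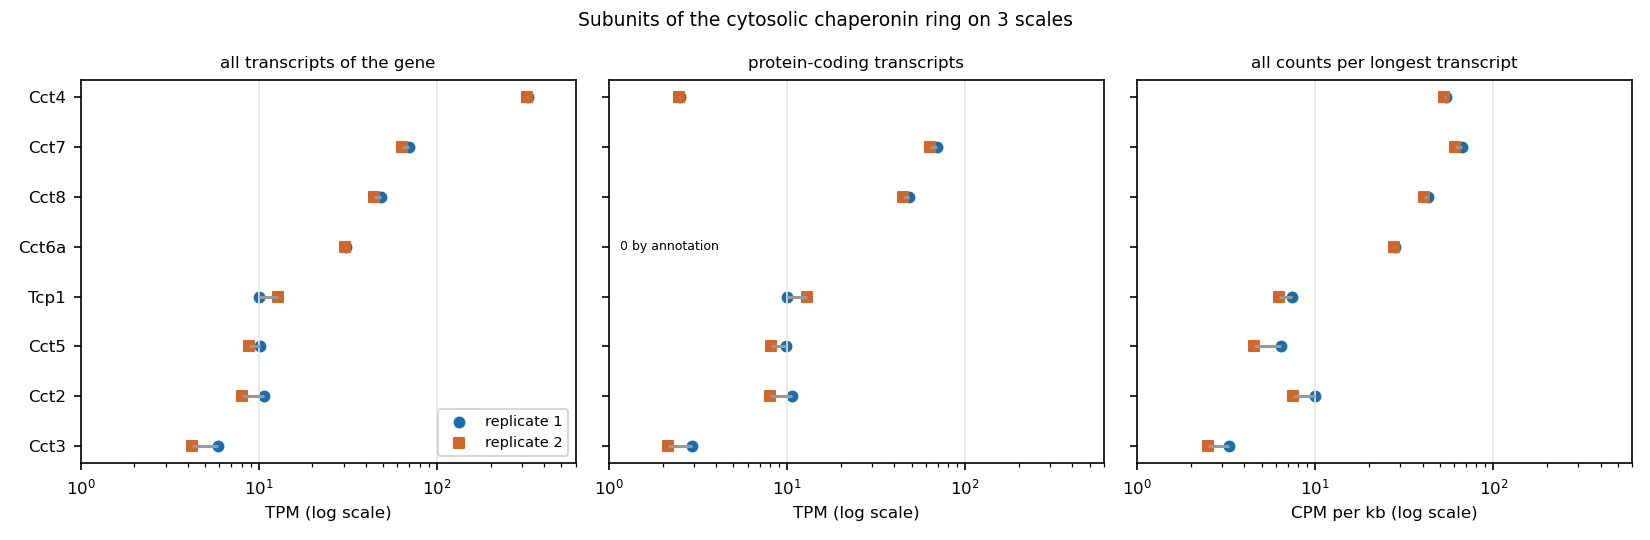
Levels of the 8 subunit genes of the cytosolic chaperonin ring in replicate 1 (circles) and replicate 2 (squares) on 3 log scales, from left to right TPM of all transcripts, TPM of transcripts annotated protein-coding, and expected counts per kilobase of the longest coding transcript (for Cct6a, of its longest transcript), as CPM per kilobase. Cct4 moves from the top at 323 TPM to 2.49 TPM on coding transcripts, while Cct7 and Cct8 stay above Tcp1, Cct5, Cct2 and Cct3 on all 3 scales, and Cct6a has no coding transcript in the annotation used here.

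J-domain proteins bring substrates to HSP70 and start its ATP hydrolysis. Dnaja1, a major cytosolic J protein, had 215 and 148 TPM in replicates 1 and 2. In its own family Dnaja3, the mitochondrial form, had 10.5 and 14.5 TPM, Dnaja2 had 12.6 and 8.20 TPM, and Dnaja4 had 1 count in all. Dnajb2, known to sort ubiquitinated proteins, was the highest DNAJ gene in TPM of all transcripts, at 350 and 364 TPM. Dnajb6, which suppresses protein aggregation, had 218 and 262 TPM, and Dnajb1, the stress-inducible partner of HSP70, had 68.2 and 65.1 TPM. On coding transcripts Dnajb6, at 218 and 262 TPM, was above Dnajb2, at 124 and 140.0 TPM. Of the J proteins of the endoplasmic reticulum, Dnajb11 had 26.5 and 24.2 TPM, Dnajb9 4.35 and 6.12 TPM and Dnajc3 2.63 and 2.99 TPM. Not all J proteins of that compartment are listed, so these values do not rank the class. Dnajb7, Dnajb8 and Dnajb13 had 0 counts.

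The DNAJC genes, which share little beyond the J domain, formed a broad middle range. Of 28 genes, 22 had at least 1 TPM in both libraries, 14 had at least 10 TPM and none had 100 TPM. The highest in TPM of all transcripts were Dnajc13, an endosomal protein, at 63.4 and 73.9 TPM in replicates 1 and 2, Dnajc8, found with splicing factors, at 96.1 and 37.1 TPM, and Dnajc30 of mitochondria at 61.1 and 68.7 TPM. The level of Dnajc13 lay on a retained-intron transcript of 568 bases, with 1.98 and 1.28 TPM on coding transcripts, where Dnajc30 was the highest DNAJC gene. Its difference from Dnaja1 in log2(TPM + 1) was -1.37 on all transcripts and -4.37 on coding transcripts, and it was -2.78 by counts per longest coding length. Dnajc9, a histone chaperone, had 46.0 and 40.3 TPM, and Dnajc19, of the mitochondrial import motor, 29.6 and 29.9 TPM. Dnajc5b, Dnajc5g and Dnajc22 had 0 counts.

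Against Dnaja1, both tested DNAJA genes, 6 of 8 tested DNAJB genes and all 22 tested DNAJC genes were lower, where 86.8% of protein-coding genes were lower and 3.97% were higher. Dnajb2 was the only tested DNAJ gene called higher than Dnaja1 (difference 1.00 in log2(TPM + 1), SE 0.444, limma adjusted p = 0.028). That call was lost and its direction turned, to -0.44 (limma adjusted p = 0.24), once levels were adjusted for GC content. The difference was 1.30 on coding transcripts (limma adjusted p = 3.8e-12) and 1.54 by counts per longest coding length (limma adjusted p = 6.3e-08). Dnajb6 was not separated from Dnaja1 (difference 0.42, SE 0.444, 95% interval -0.45 to 1.29). On coding transcripts alone Dnaja1 had 56.2 and 49.95 TPM in replicates 1 and 2, and Dnajb6 was then higher than Dnaja1 by 2.15 (limma adjusted p = 5.7e-29). On that scale Dnajb1, at 0.33, Dnajc30, at 0.29, and Dnajc9, at -0.29, were no longer separated from Dnaja1. By counts per longest coding length Dnajb1, Dnajb12, Dnajc8 and Dnajc9 also lost the call, and Dnajc30 was higher than Dnaja1 by 0.64 (limma adjusted p = 0.022).

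Several BAG proteins release nucleotide and substrate from HSP70, though not every member of the family is known for this. Bag1 (ENSMUSG00000028416.7, chromosome 4, 40936398 to 40948294, minus strand) was the highest of all members, at 603 and 733 TPM in replicates 1 and 2. Bag6, which guides tail-anchored and misfolded proteins in the cytosol, had 529 and 599 TPM. Bag3, which links HSP70 to autophagy, had 89.8 and 107 TPM. Bag2, an inhibitor of the ubiquitin ligase Stub1, had 13.8 and 15.7 TPM, Bag4 had 9.71 and 9.92 TPM, and Bag5 had 7.86 and 6.31 TPM. The order of the 6 genes was the same in both libraries.

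Bag6 was not separated from Bag1 (difference -0.24 in log2(TPM + 1), SE 0.216, 95% interval -0.66 to 0.18). On coding transcripts alone it was lower than Bag1, at -0.66 (limma adjusted p = 0.0011), as it was after adjustment for GC content, at -0.55 (limma adjusted p = 0.017), and by counts per longest coding length, at -0.86 (limma adjusted p = 1.8e-05). The other 4 BAG genes were lower than Bag1 on all transcripts, as were 97.2% of protein-coding genes (1.33% were higher), with differences from -2.75 (Bag3) to -6.37 (Bag5).

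For many members the gene level rested on transcripts not annotated as coding, most of them short. Among the 38 members with at least 10 TPM in both libraries, the transcript with the largest share of TPM was not annotated protein-coding in either library for 14 (36.8%), against 22.8% of the 4370 protein-coding genes at that level. It was protein-coding in both libraries for 22 members (57.9%), against 73.7%. Coding transcripts held under 50% of the gene TPM in 15 members (39.5%), against 24.2%. The median member still had 92.0% of its TPM on coding transcripts, against 98.5% for protein-coding genes.

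Dnajb2, Cct4, Dnaja1 and Hsph1 were the highest of the 14. A transcript of 416 bases held 94.3% of the Hsph1 TPM in replicate 1 and 95.2% in replicate 2, and it has no entry in the annotation used here. A retained-intron transcript of 404 bases held 53.9% and 60.8% of Dnajb2. A processed transcript of 571 bases held 73.4% and 66.0% of Dnaja1. A retained-intron transcript of 487 bases held 86.3% and 84.9% of Hsp90aa1. In each of these genes the libraries gave the same leading transcript.

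Hspa5, Dnajc1 and Dnajc5 were led by transcripts annotated for nonsense-mediated decay. Dnajc15, of the mitochondrial import motor, has 1 transcript in the tables, of the same type, so its 48.4 and 50.7 TPM in replicates 1 and 2 all fall outside the coding class. Dnajc8, Dnajc13 and Dnaja3 were led by retained-intron transcripts, and Dnajc24 and Dnajc7 by processed transcripts. By contrast, the leading coding transcript held 97.1% and 98.2% of Hspa8, 97.9% and 97.2% of Hsp90ab1 and 92.6% and 87.7% of Bag1.

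**Figure D3:**
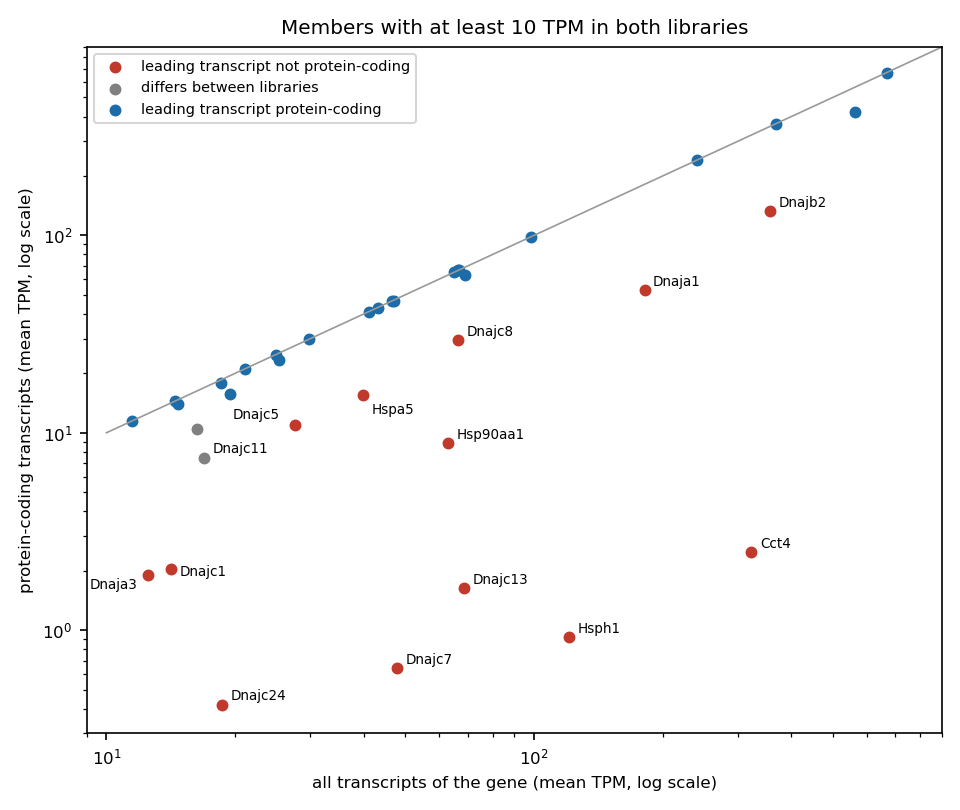
Mean TPM of all transcripts (x axis, log scale) against mean TPM of transcripts annotated protein-coding (y axis, log scale) for 37 of the 38 members with at least 10 TPM in both libraries, coloured by the type of the leading transcript, with a line where both are equal. Dnajc15, at 0 on the y axis, is not drawn. Cct4 and Hsph1 lie farthest to the lower right, at 2.49 and 0.92 TPM on coding transcripts.

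The scale mattered, because short transcripts gain TPM for each read. Of the expected counts of Dnaja1, 73.8% fell on coding transcripts, though these held 29.2% of its TPM. The same figures were 82.7% and 37.0% for Dnajb2, 82.3% and 38.7% for Hspa5, and 58.3% and 14.03% for Hsp90aa1. Cct4, Hsph1 and Dnajc7 stayed mostly outside the coding class on counts too, with 4.29%, 6.85% and 4.599% of their counts on coding transcripts. By counts, 8 members in place of 14 were led by a transcript not annotated protein-coding. No share of all protein-coding genes was taken by counts, so this number cannot be read as an excess.

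**Figure D4:**
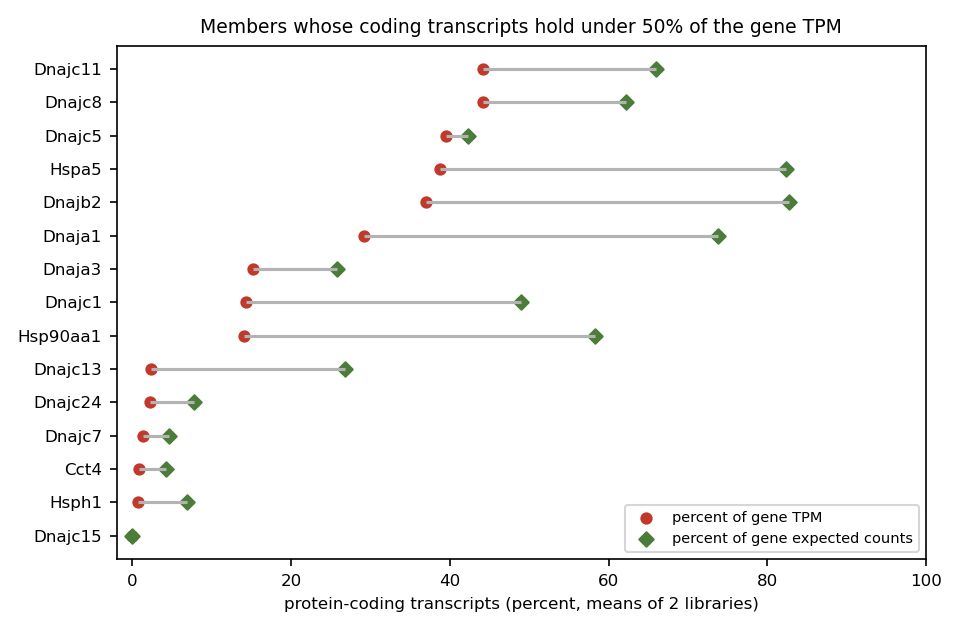
Percent of a gene's TPM (circles) and of its expected counts (diamonds) that fell on transcripts annotated protein-coding, from the means of the 2 libraries, for the 15 members with under 50% of TPM on such transcripts. Hspa5, Dnajb2 and Dnaja1 have more than 70% of their counts on coding transcripts, while Dnajc24, Dnajc7, Cct4, Hsph1 and Dnajc15 stay under 10% on both scales.

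The leading transcript was the same in both libraries for 33 of the 38 members (86.8%), against 92.7% of protein-coding genes. It differed for Bag6, Dnajc7, Dnajc11, Hspb6 and Tcp1. In Tcp1 a coding transcript of 2446 bases led in replicate 1 with 67.5% and a coding transcript of 614 bases led in replicate 2 with 59.2%. In Hspb6 a processed transcript of 1980 bases led in replicate 1 with 51.8% and the coding transcript of 1363 bases led in replicate 2 with 78.4%. Dnajc11 changed from a retained-intron to a coding transcript, while Bag6 and Dnajc7 changed within a type.

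Between the libraries, the shares of members that differed lay near those of all genes. Of 67 members with at least 20 summed counts, 2 (2.99%) were past 1.5-fold higher in replicate 2, against 4.18% of protein-coding genes, and 7 (10.4%) were past 1.5-fold lower, against 9.87%. The higher members were Hspa1a and Hspa1b. The lower members were Dnajc8, Hspa12b, Hspb11, Dnajc7, Hsp90ab1, Hsp90aa1 and Dnajc10. The share over all genes includes genes of few counts, whose ratios spread more widely. The 5th percentile of the log2 ratio was -1.74 at 20 to 50 summed counts and -0.46 at 5000 to 10000. Dnajc8 (-1.28) and Hsp90aa1 (-0.72) lay below the latter. At 10000 to 20000 counts it was -0.42, with Hsp90ab1 at -0.74. Dnajc7 (-0.79) lay below -0.56, the value at 2000 to 5000 counts. Hspb11 (-0.93) lay slightly below -0.89, the value at 200 to 500, and Hspa12b (-1.38) below -1.28, the value at 50 to 100. Only Dnajc10 (-0.70) of the lower members was within its value, -0.76 at 1000 to 2000 counts. Dnajc8 had 1867 expected counts in replicate 2 and 6202 in replicate 1, a ratio of 0.412 after TMM scaling (95% counting interval 0.391 to 0.434). Hsp90ab1 had 4523 counts in replicate 2 and 10354 in replicate 1 (ratio 0.598, interval 0.577 to 0.619). Hsp90aa1 had a ratio of 0.606, Dnajc7 of 0.578, Hspb11 of 0.526, Dnajc10 of 0.614 and Hspa12b of 0.383. The next highest ratios, within 1.5-fold, were 1.49 for Cct6b, 1.47 for Dnajb5 and 1.46 for Dnajb9.

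Some other genes moved with these ratios. The summed level of the 6 myeloid markers was 16.8 TPM in replicate 2 against 5.28 TPM in replicate 1. Mpo had 3.96 TPM in replicate 2 against 0.19 TPM in replicate 1, Elane 3.04 and 0.04 TPM, and Prtn3 3.76 and 0.08 TPM, while S100a8 was at 0 counts in both libraries and only Spi1 had 1 TPM in both. Their part in the ratio of Hspa1a and Hspa1b was not tested. Over the 67 members the log2 ratio of replicate 2 to replicate 1 had a Pearson r of 0.32 and a Spearman rho of 0.18 with transcript GC content. Over 9537 protein-coding genes r was 0.21. These are descriptions across genes that share the same 2 libraries.

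**Figure D5:**
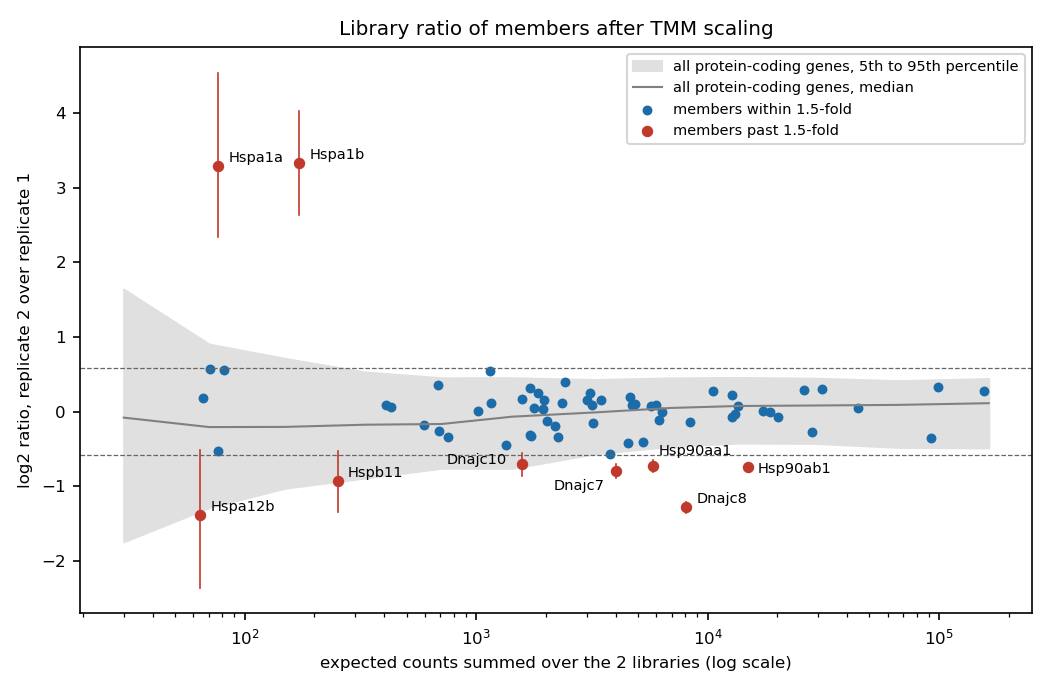
Log2 ratio of expected counts, replicate 2 over replicate 1 after TMM scaling, against the counts summed over both libraries (log scale), with the 5th to 95th percentile of all protein-coding genes shaded and their median as a line. Red points with 95% counting intervals are members past the dashed lines at 1.5-fold, and blue points are the others. Hspa1a and Hspa1b lie above the shaded band, and Dnajc8, Dnajc7, Hsp90aa1 and Hsp90ab1 are among those below it.

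The partners of these chaperones were counted from a list of 41 genes. Of these, 35 (85.4%) had at least 1 TPM in both libraries, against 35.3% of protein-coding genes. At least 10 TPM was reached by 20 (48.8%, against 20.4%) and at least 100 TPM by 6 (14.6%, against 4.32%). The highest were Fkbp8, a mitochondrial immunophilin that binds HSP90, at 1671 and 1988 TPM in replicates 1 and 2, and St13, which stabilises HSP70 with its substrate, at 197 and 244 TPM. Pfdn6, a subunit of prefoldin, which hands proteins to the cytosolic chaperonin, followed with 194 and 203 TPM. All 20 co-chaperones of HSP90 and HSP70 on the list had at least 1 TPM in both libraries. Hsf1, the main factor of the heat shock response, had 35.2 and 33.3 TPM and its inhibitor Hsbp1 21.8 and 18.1 TPM. Hsf2 had 0.16 TPM in both, and Hsf3 and Pdcl2 had 0 counts. Between the libraries, 0 of 39 partner genes with at least 20 counts were past 1.5-fold higher in replicate 2, against 4.18% of protein-coding genes, and 4 (10.3%) were lower, against 9.87%.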

How the data were processed

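The authors deposited tables of genes and of transcripts per library, on mm10 with GENCODE annotation M4, per the deposited description files. The sources used here name no aligner, quantifier or strand setting. Per the file headers, expected counts are estimated fragments that need not be whole, TPM are counts per effective length scaled to a common sum, FPKM are fragments per length and library size, and the percent of a gene's TPM on each transcript comes from the authors. Names, types and coordinates were taken from GENCODE M21, also mm10, so types may differ from M4.

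The members and lists were chosen with earlier results of these data known. Levels were compared within libraries with limma 3.58.1 (trend, intercept alone) on log2(TPM + 1), where folds of low genes are understated. In simulated data the step against Hspa8, over 7742 genes, called 100% of 50 genes at a true log2 ratio of -1, 88% at -0.5 and 6% at 0. The simulated noise was independent between genes and took the spread of the fit itself. The rates therefore do not cover changes shared by genes of a library, nor the other family genes, which were not simulated. Library ratios used expected counts scaled by TMM in edgeR 4.0.16, at 20 summed counts and 1.5-fold, without a test. Genes named were the 3 highest and the lowest of each family, all of families of 10 or fewer, family genes, the 5 largest ratios each way, genes led by transcripts not annotated as coding or differing between libraries, and the 3 highest and lowest partners. Further genes were named after their values were seen. Pseudogenes named after members (11 rows, 6 genes) held 4.05 and 1 counts. Left out were 97 spike-in rows and 26248 rows whose names are bare numbers, with 5 and 4 counts in all. Intervals are exact at 95% and cover counting error only. Alternatives were the pseudocount, filters, FPKM, posterior means, GC content, other scalings including DESeq2 1.42.0 size factors, and each library left out. Coding transcripts only, counts per longest coding length and no trend of the prior spread were added after the data were seen. R 4.3.3, Python 3.11.15, pandas 2.3.3, numpy 2.4.6 and scipy 1.17.1 were used.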

Additional observations from a re-analysis of the deposited data

How the results depend on the processing

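No paired analysis was possible because the series has 1 group. The members' summed TPM was 4113 as reported, 4077 by posterior means, 4181 in FPKM and 2785 on coding transcripts only, where DNAJC genes summed to 273 TPM in place of 545 and HSP90 genes to 64.05 TPM in place of 119. Members called lower than their family gene were 25 in place of 41 with a filter of 10 TPM, where fewer genes were tested. Members higher in replicate 2 were 6 with a count minimum of 1 and 1 with a minimum of 100, in place of 2. They were 9 at a fold threshold below 1.5, and 4 of 67 after adjustment for GC content. After that adjustment 4.49% of protein-coding genes were past 1.5-fold higher. Members lower in replicate 2 were 2 at 2-fold and 16 at the lower threshold, in place of 7. For the changed fold thresholds and count minimums no share of all protein-coding genes is given, so those counts cannot be read as an excess. The same transcript led in both libraries for 53 of 59 members at 1 TPM and 7 of 8 at 100 TPM. Leading transcripts not annotated as coding were 4 of 8 at 100 TPM and 8 of 38 by share of counts. The numbers of leading transcripts at these settings were not set against all protein-coding genes. With 2 units in place of 3, 22 promoter windows held an element in place of 6.

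Of the differences from a family gene, given in log2(TPM + 1), 13 values across the alternatives turned direction. Adjusted for GC content, Dnajb2 came to -0.44. On coding transcripts, Hsp90aa1 came to -2.25, Cct4 to -1.82, Dnajb1 to 0.33 and Dnajc30 to 0.29. By counts per longest coding length, Hsp90aa1 came to -1.66, Cct2 to 0.31, Dnajb1 to 0.32, Dnajc9 to 0.055, Dnajc8 to 0.0025 and Dnajc30 to 0.64. With a library left out, Cct5 ranged between -0.51 (without replicate 1) and 0.0078 (without replicate 2), and Cct2 between -0.62 and 0.075. Of the other tested values, 516 kept direction and side of the threshold, 2 lost the call and 6 gained it. Another 100 values with a library left out kept direction and had no test. For Dnajb2 and the pair without replicate 2 the cause was not tested. The prior spread of the limma fit comes from all genes, so 2 libraries limit each p-value.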
